A study of Homo sapiens with 21 samples.

Results

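Sense overlapping circRNA junctions are back-splice junctions that the deposited sheets assign to the strand of a named host gene without calling them exonic or intronic. They were taken as every circle of that class outside the mitochondrial chromosome, which gave 1505 circles of 1167 host genes among 8714 circles in all, or 17.3% of the circles and 12.03% of the junction reads. The cells were FaDu, an established line grown from a squamous carcinoma of the lower throat. Circles were counted in rRNA-depleted total RNA from 9 libraries, 3 each (A, B and C) of a control called shCtr, labelled wild type, and of IGF2BP3 knockdown with sh3-1 and with sh3-2, which are read from their names as separate hairpins. MeRIP-seq, which pulls down RNA carrying m6A with an antibody, was made from sh3-2 and shCtr only.

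A circular RNA forms when a downstream 5′ splice site is joined to an upstream 3′ splice site, so that the only reads that tell it from linear RNA are those that cross this back-splice junction. Most known circles start and end at annotated exon borders. How the sense overlapping class was defined is not stated in the sources used; such a class usually holds same-strand junctions with an end that is no annotated exon border. IGF2BP3 is an RNA-binding protein that recognises m6A-marked RNA and stabilises its targets. Junction reads count a single site per circle, so the levels below were not divided by length.

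Libraries held 3775 to 5846 junction reads, the fewest in sh3-2. The 5 circles of IGF2BP3 itself, 1 of them sense overlapping, had 6, 2 and 0 reads in shCtr A, B and C, 5, 1 and 0 in sh3-1 and 3, 6 and 0 in sh3-2. These counts are too low to check the knockdown, and linear IGF2BP3 mRNA was not analysed here. Of 16 squamous epithelial marker genes only EGFR hosted a circle of any class (2 circles, 4 reads, all in shCtr). Markers of fibroblasts (7 genes), immune cells (7) and endothelium (2) hosted 0, and with circles alone the labelled cell type could be checked no further. In bulk RNA, fewer cells with a circle and less of it per cell cannot be told apart.

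The label was first set beside other deposited annotation. Predicted length is part of that annotation and not a measurement. It equalled the genomic span in 1505 of 1505 sense overlapping circles, so that no intron had been taken out of the prediction. The same held for all 1029 intronic circles, every antisense and intergenic one, and 4.30% of 6093 exonic circles. An end position was called exonic if an exonic circle of the same host used it. Only 890 sense overlapping circles had a host with an exonic circle and could score. Of these, 536 (60.2%) had no exonic end, 351 had a single one and 3 had both. The exonic end lay on the acceptor side, where the circle begins, in 163 circles and on the donor side in 194. Where a single end was exonic, the other lay a median of 5243 bp from the nearest exonic one, and in 7 of 351 circles it lay within 5 bp. The other end was thus rarely a slightly shifted end of a listed exonic circle. Whether it lay at an annotated exon border that no such circle used was not tested. The class also holds the circle of ZNF609 (chr15:64791492-64792365, build hg19 as all positions here, hsa_circ_0000615), a transcription regulator whose single-exon circle has been described in muscle precursors.

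Most sense overlapping circles were rare. In all, 1122 (74.6%) had reads in 1 library only, 246 in 2 libraries, 62 in 3 and 3 in all 9. A total of 659 (43.8%) rested on exactly 2 reads, the lowest total in the sheets, and 50 (3.32%) reached 10 reads, against 10.5% of exonic circles. The 43 circles with reads in at least 5 libraries made up 2.86% of the class and 15.1% of its reads.

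Circles shared between libraries were unevenly spread. Of the 246 sense overlapping circles found in exactly 2 libraries, 63 were found in sh3-1 A and B and 42 in sh3-2 B and C, while each of the other 34 pairs of libraries held 0 to 16. Of the circles found in either library, 30.8% were in both sh3-1 A and B and 25.3% in both sh3-2 B and C, against 4.77% to 10.8% for the other pairs. A circle of SNRPN, described below, is of this kind, as all of its 13 reads lay in sh3-1 A and B. The same libraries stood apart in exonic and intronic circles. In sh3-1 A and B, 19.7% and 21.2% of exonic circles were seen in no other library. In sh3-2 B and C it was 20.2% and 21.5%, and in every other library at least 30.04%. For intronic circles the values were 42.8%, 37.4%, 48.5% and 51.5% in the same order, against at least 65.5%. Low values were thus not particular to the class. Pairs were not counted for exonic and intronic circles. Counts of circles seen in more than 1 library move with these library pairs, and their part in the results was not tested. Reads in any control, any sh3-1 and any sh3-2 library were found for 68 circles (4.52%). Circles found in a single group numbered 533 for shCtr (35.4% of the class), 360 for sh3-1 (23.9%) and 380 for sh3-2 (25.2%). Of these, 1, 1 and 2 were found in all 3 libraries of the group. Of exonic circles, 27.7%, 22.5% and 16.7% were found in the same single groups. A circle with reads in 1 library only always counts here, and such circles made up 74.6% of the class and 56.0% of exonic circles.

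**Figure D1:**
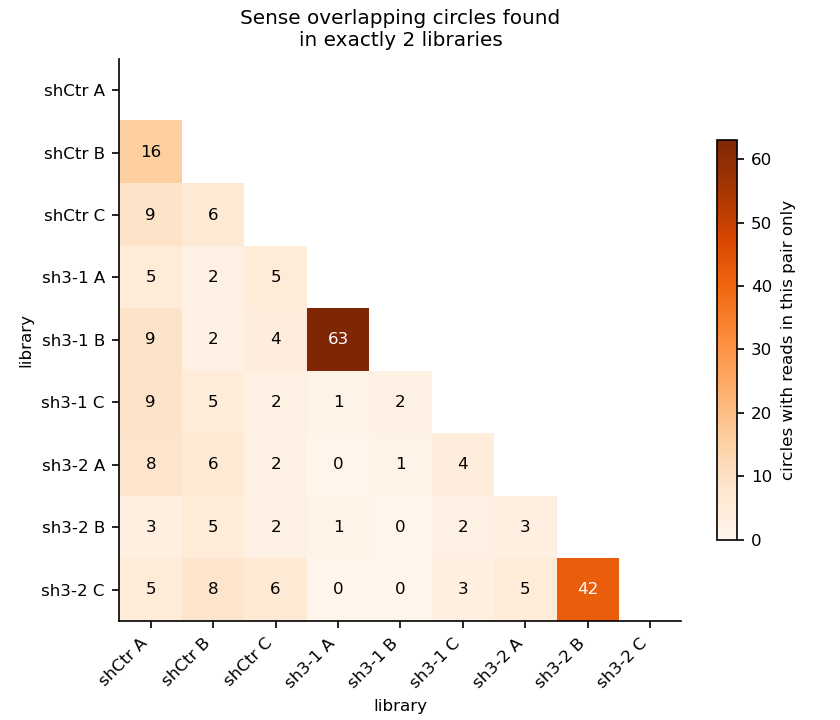
Each cell gives the number of sense overlapping circles with reads in exactly that pair of the 9 libraries and in no other. The pairs sh3-1 A with B (63) and sh3-2 B with C (42) stand out from the other pairs, which hold 0 to 16.

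Within every library the class stood between exonic and intronic circles. A circBase identifier, which marks a circle catalogued in earlier studies, was carried by 27.2 ± 3.17% of the detected sense overlapping circles (mean ± SD over 9 libraries), by 83.2 ± 1.02% of exonic and by 12.1 ± 2.00% of intronic ones. An end shared with another circle of the same host was seen for 43.6 ± 2.40%, 58.1 ± 1.63% and 14.1 ± 2.98% of them. Circles seen in no other library made up 50.2 ± 11.8%, 27.4 ± 6.72% and 58.4 ± 13.4%. Each of these differences from exonic and from intronic circles had the same sign in 9 of 9 libraries (exact two-sided sign-flip permutation test, p = 0.00391, the smallest that 9 libraries can give; adjusted p = 0.00434 over 10 comparisons). The libraries share circles, so these tests treat them as more independent than they are.

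By span, the class did not stand between the other classes. The median genomic span of detected sense overlapping circles was 14180 ± 2229 bp, against 10176 ± 430 bp for exonic and 1157 ± 232 bp for intronic circles, and it was longer in 9 of 9 libraries against both (exact permutation p = 0.00391, adjusted p = 0.00434). The shortest sense overlapping circle spanned 150 bp and the longest 99617 bp. Reads per detected circle were 2.48 ± 0.256, below the 2.93 ± 0.385 of exonic circles in 9 of 9 libraries (exact permutation p = 0.00391, adjusted p = 0.00434). Against the 2.496 ± 0.274 reads of intronic circles they were lower in 5 libraries and higher in 4 (exact permutation p = 0.719, adjusted p = 0.719).

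**Figure D2:**
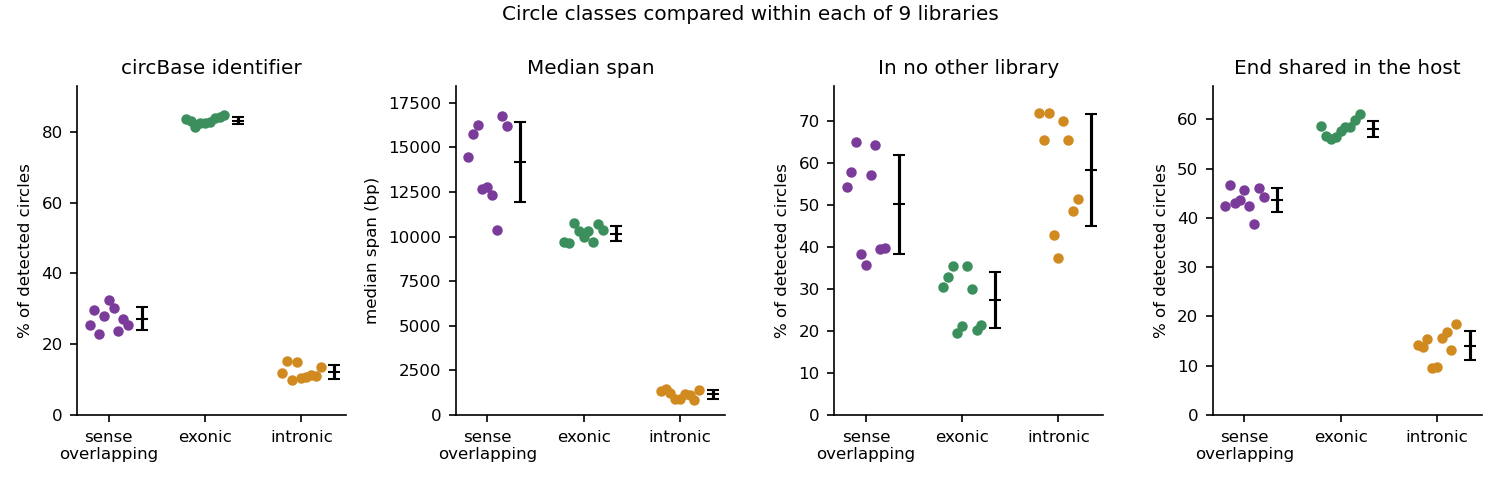
Each point is 1 of 9 libraries, with mean and SD beside the points, for 3 circle classes; the panels give the share of detected circles with a circBase identifier, the median span in bp, the share seen in no other library and the share that shares an end with another circle of its host. Sense overlapping circles lie between exonic and intronic ones in the percentages (27.2% with a circBase identifier against 83.2% and 12.1%) and above both in span.

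Hosts were mostly protein-coding: of 1123 hosts matched to a RefSeq symbol (of 1167), 1082 were. The 21 matched long noncoding RNA hosts carried 52 circles, or 3.46% of the class, against 0.443% of exonic and 2.43% of intronic circles. Of the 1167 hosts, 648 (55.5%) also hosted an exonic circle. A single sense overlapping circle came from 951 hosts and 5 or more from 15 hosts.

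The host with most circles was MALAT1 (16 circles, 65 reads), a nuclear long noncoding RNA that is very abundant in cancer cells and has hardly any introns. It hosted no exonic and no intronic circle here. Its circles spanned 189 to 5342 bp, and 7 of the 16 ended at the same downstream position, chr11:65272490. The most abundant MALAT1 circle, of 189 bp at chr11:65272658-65272846, outside that group (hsa_circ_0096166), had 2, 0 and 0 reads in shCtr A, B and C, 2, 4 and 3 in sh3-1 and 0, 4 and 0 in sh3-2. Summed over its circles MALAT1 had 11, 1 and 5 reads in shCtr, 7, 10 and 6 in sh3-1 and 8, 13 and 4 in sh3-2, so the groups overlapped.

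ZNF124, a zinc finger gene, had the most reads of these hosts (123 reads on 5 circles) and no exonic circle. All 5 of its circles shared the upstream end chr1:247323115 on the minus strand and differed in the downstream end. They spanned 2730 to 21098 bp, and 4 carried a circBase identifier.

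In SPG11, a gene of lysosome turnover mutated in hereditary spastic paraplegia, 5 of 7 circles shared the upstream end chr15:44949461. In ADARB1, which edits adenosine to inosine in RNA, 4 of 8 began at chr21:46536848, and in the long noncoding RNA CCAT1, first described in colon cancer, 4 of 7 shared the downstream end chr8:128209720. FIRRE, an X-linked long noncoding RNA that helps to organise chromatin in the nucleus, had 5 circles with 54 reads beside 5 exonic circles with 169 reads. CHD9, a chromatin remodeller, had 5 circles with 27 reads beside 6 exonic ones with 28.

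**Figure D3:**
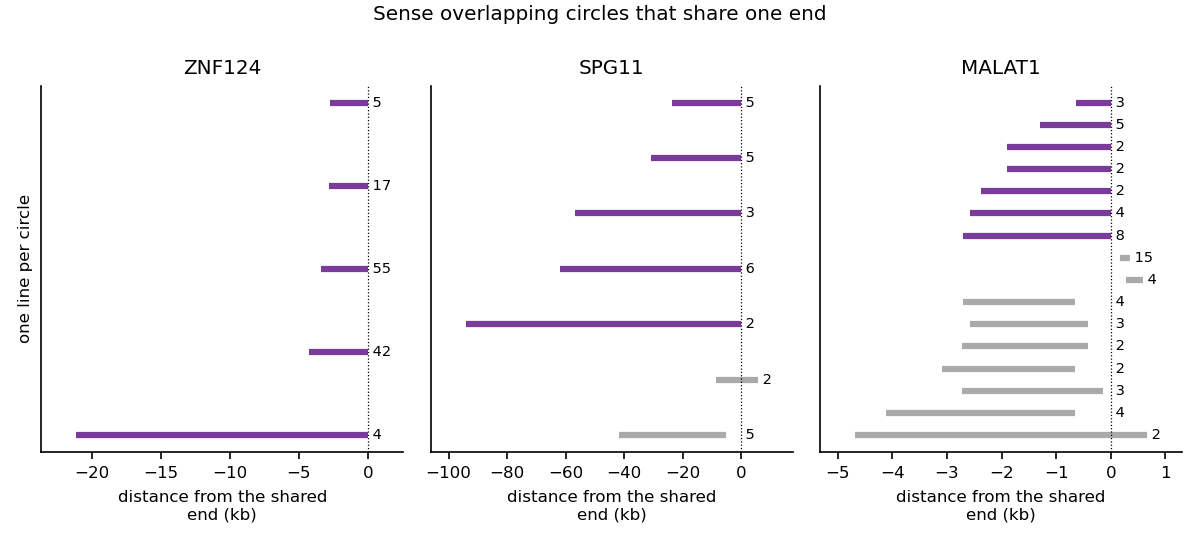
Each line is 1 sense overlapping circle of ZNF124, SPG11 or MALAT1, drawn by the distance of its ends in kb from the end most used in that host (dotted line), with its junction reads over 9 libraries at the right; purple circles use that end and grey ones do not. All 5 ZNF124 circles, 5 of 7 SPG11 and 7 of 16 MALAT1 circles use it.

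The most abundant circle of the class came from NIPBL, which loads cohesin onto chromosomes. It lies at chr5:36982267-36986403 (plus strand, hsa_circ_0128921, 4137 bp) and had 7, 2 and 16 reads in shCtr A, B and C, 0, 9 and 5 in sh3-1 and 16, 3 and 5 in sh3-2. Both the highest control and the highest sh3-2 library had 16 reads, and the groups overlapped. It outnumbered the exonic circles of the same gene, which had 26 reads on 4 circles.

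ZNF124 gave 3 of the 20 most abundant circles. The 3408 bp circle chr1:247319708-247323115 (hsa_circ_0112879) had 12, 5 and 9 reads in shCtr, 10, 5 and 1 in sh3-1 and 4, 2 and 7 in sh3-2. The 4248 bp circle chr1:247318868-247323115 (hsa_circ_0002922), with the same upstream end, had 2, 3 and 3 reads in shCtr, 5, 19 and 7 in sh3-1 and 0, 1 and 2 in sh3-2. For the shorter circle all groups overlapped, while for the longer one every sh3-1 library lay above every control and every sh3-2 library. The 2814 bp circle chr1:247320302-247323115 had 3, 1 and 3, then 4, 1 and 3, then 2, 0 and 0 reads.

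The ZNF609 circle had 11, 6 and 4 reads in shCtr, 0, 6 and 2 in sh3-1 and 5, 2 and 6 in sh3-2. ELK4, an ETS factor that acts with serum response factor, had a circle (chr1:205585606-205597002) with 1, 1 and 8 reads in shCtr, 8, 5 and 8 in sh3-1 and 2, 0 and 6 in sh3-2. In both, the hairpin libraries overlapped the controls, and the ELK4 gene had 90 reads on exonic circles beside 39 on this one. The leading FIRRE circle (chrX:130877124-130928494) had 6, 9 and 1, then 5, 0 and 3, then 3, 2 and 6 reads, again with overlap. That of MPP6, a membrane scaffold of the guanylate kinase family (chr7:24663282-24708279), had 9, 4 and 5 reads in shCtr, 1, 0 and 6 in sh3-1 and 1, 5 and 1 in sh3-2. It is 1 of the 3 circles of the class with both ends exonic, and MPP6 had 198 reads on 11 exonic circles.

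Of the other circles among the 20 most abundant, that of NFE2L2 (the oxidative stress factor NRF2) had 25 reads. The NFE2L2 circle had 9 of its reads in shCtr B and 0 in sh3-1 B and C. The circles of MED13L (a subunit of the Mediator kinase module), ARHGAP35 (a GTPase-activating protein of the cytoskeleton), ELOVL5 (a fatty acid elongase), ZNF587 (whose close paralogs make the placing of its reads uncertain), FANCB (Fanconi anaemia pathway), KIFAP3 (kinesin-2 cargo adaptor), SMC6 (SMC5/6 complex), RRP7A (ribosomal RNA processing) and CHD9 had 15 to 21 reads each in 5 to 8 libraries. Of these, 9 of the 21 MED13L reads lay in sh3-1 C and 7 of the 17 KIFAP3 reads in shCtr B.

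**Figure D4:**
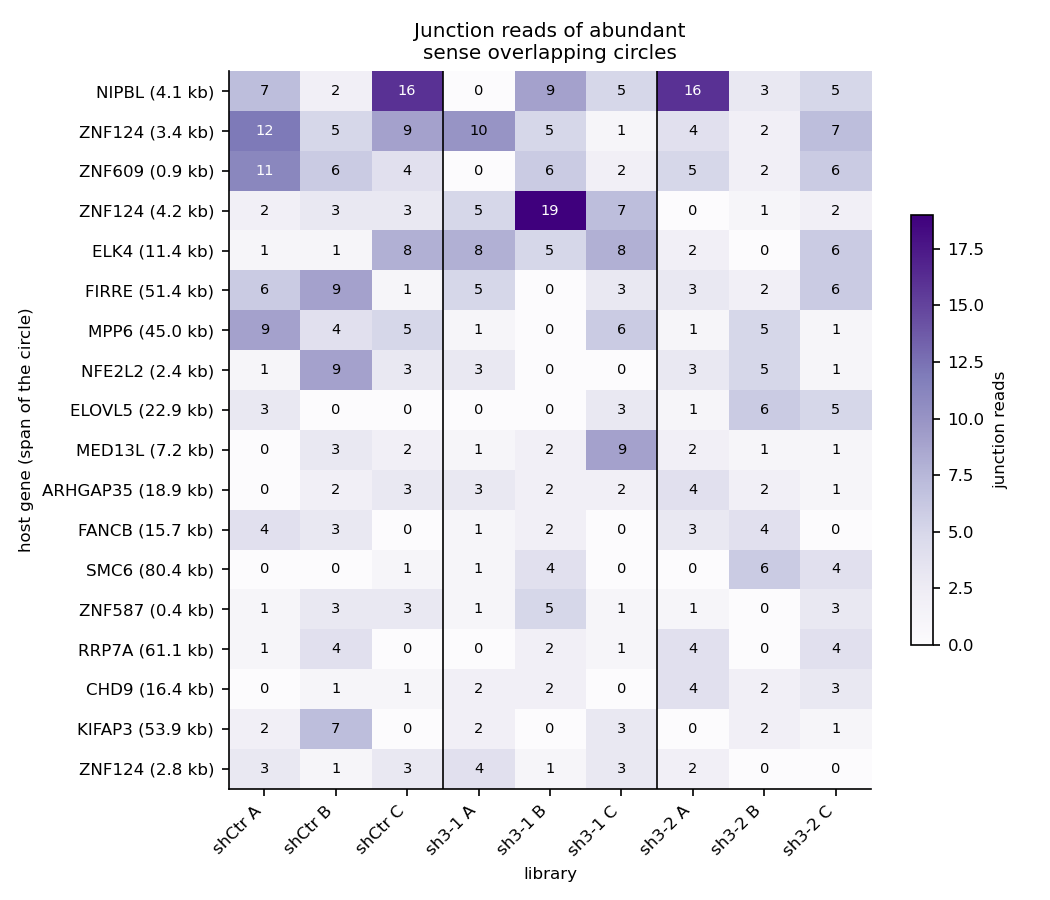
Rows are 18 of the 20 sense overlapping circles with the highest mean share of junction reads, named by host gene and span in kb, columns are the 9 libraries, and each cell gives the junction reads. Few circles have reads in every library, and the highest cells are 19 (a ZNF124 circle in sh3-1 B) and 16 (NIPBL in shCtr C and sh3-2 A).

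Whether knockdown of IGF2BP3 changes these circles was asked with each hairpin against the shared controls, so the hairpin comparisons are not independent of each other. With edgeR's default filter 33 circles of all classes were tested for sh3-1 and 24 for sh3-2, 0 of them sense overlapping, and an FDR under 0.05 was reached by 0% in both comparisons. The fit of all 9 libraries (37 circles tested) also held 0 sense overlapping circles and called 0% both for sh3-2 against sh3-1 and for both hairpins against shCtr. Circle by circle, the class is therefore below the depth at which this test works by default. A lower filter, with a minimum count of 3, brought 8 sense overlapping circles into the sh3-1 comparison (193 tested, 0% called) and 10 into the sh3-2 comparison (148 tested, 0.676% called, an exonic circle of GDI2). None of the 8 or 10 passed edgeR's quasi-likelihood test. At an unadjusted p under 0.05 there was 1 with sh3-1 (11 of all 193 circles) and 0 with sh3-2 (12 of all 148). DESeq2 called 0 of the 8 and 0 of the 10, against 0 of all 193 circles and 1 of all 148 (GDI2 again).

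With sh3-1, 2 of the 8 circles had positive and 6 negative log2 fold changes, with a median of −0.86 against −0.05 over all 193 circles. The longer ZNF124 circle chr1:247318868-247323115 had the smallest p of the 8, with a log2 fold change of 1.79 (SE 0.90; edgeR adjusted p = 0.853). The values were 1.03 (SE 0.99) for ELK4, −0.71 (SE 0.77) for the shorter ZNF124 circle, −0.93 (SE 0.85) for NIPBL, −1.02 (SE 1.07) for FIRRE, −1.43 (SE 1.07) for MPP6 and −1.51 (SE 1.02) for ZNF609. No adjusted p from edgeR was below 0.853. Each estimate lay within 2 standard errors of 0. Single libraries decided their size: with 1 left out, MPP6 ran from −3.27 (without sh3-1 C) to −0.80 (without sh3-1 B), ZNF609 from −2.72 (without sh3-1 B) to −0.90 (without shCtr A) and FIRRE from −1.97 (without sh3-1 A) to −0.33 (without shCtr B). NIPBL ran from −1.64 (without sh3-1 B) to −0.16 (without shCtr C), ELK4 from 0.71 (without shCtr B) to 2.63 (without shCtr C), the shorter ZNF124 circle from −1.68 (without sh3-1 A) to −0.16 (without sh3-1 C) and the longer one from 1.15 (without sh3-1 B) to 2.08 (without sh3-1 C).

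With sh3-2, 4 of 10 had positive and 6 negative log2 fold changes, with a median of −0.10 against −0.02 over all 148 circles. No edgeR adjusted p of the 10 was below 0.882. RRP7A was at 1.03 (SE 1.47), FANCB at 0.41 (SE 1.39), NIPBL at 0.32 (SE 0.69), NFE2L2 at −0.05 (SE 0.97), FIRRE at −0.14 (SE 0.91), ZNF609 at −0.32 (SE 0.75), the shorter ZNF124 circle at −0.63 (SE 0.70) and MPP6 at −0.93 (SE 0.96). NIPBL, ZNF609, FIRRE, FANCB and NFE2L2 changed sign when a library was left out. RRP7A then ran from 0.35 (without shCtr C) to 2.41 (without shCtr B), MPP6 from −2.05 (without sh3-2 B) to −0.44 (without shCtr A) and the shorter ZNF124 circle from −1.04 (without sh3-2 C) to −0.21 (without shCtr A).

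The hairpins themselves were compared over 229 circles, 13 of them sense overlapping, with 0% called. The longer ZNF124 circle was lower in sh3-2 than in sh3-1 by a log2 fold change of −2.76 (SE 1.12; edgeR adjusted p = 0.642). NIPBL (log2 1.27, SE 0.75) lay on the other side, with the same edgeR adjusted p of 0.642. With 1 library left out NIPBL ran from 0.34 (without sh3-2 A) to 2.17 (without sh3-1 B), and the ZNF124 circle from −3.65 to −1.98. For both hairpins together against shCtr, 229 circles were tested, 0% were called, and the smallest edgeR adjusted p of the 13 sense overlapping ones was 0.819, for SMC6 at a log2 of 2.62 (SE 1.65). The circle of ZBTB38, a methyl-DNA-binding zinc finger gene, was tested in these fits only and stood at 2.26 (SE 1.72).

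Summing the reads of a class within each host gave more depth, and 66 sums were tested for sh3-1 (0% called) and 54 for sh3-2 (1.85% called, the exonic sum of MYH9). The sense overlapping sum of ZNF124, of 20, 12 and 15 reads in shCtr, 19, 26 and 11 in sh3-1 and 6, 3 and 11 in sh3-2, had a log2 fold change of 0.27 (SE 0.49; edgeR adjusted p = 0.914) with sh3-1 and −0.77 (SE 0.58; edgeR adjusted p = 0.772) with sh3-2. Every sh3-2 library had fewer ZNF124 reads than every control, but sh3-2 also had fewer junction reads, and per junction read sh3-2 C lay above shCtr B and C. With 1 library left out the sum ran from 0.02 (without sh3-1 B) to 0.68 (without sh3-1 C) with sh3-1, and from −1.26 (without sh3-2 C) to −0.39 (without sh3-2 B) with sh3-2.

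Some circles separated the groups, most of them too rare for the fits above, which did test the longer ZNF124 circle. Per 1000 junction reads, every sh3-1 library lay above every control for 4 of 1125 listed sense overlapping circles (of PHACTR4, LYPLAL1, MALAT1 and ZNF124) and below for 5 (among them RNF19A, RPL14, C5orf30 and PKM), against 1.11% and 1.03% of all circles listed for sh3-1. For sh3-2 there were 5 above (among them POLA1, MALAT1, CHD9 and NFX1) and 4 below (of RNF19A, MORC3, PKM and DENND4A) of 1145 listed, against 1.1% and 0.948% of all. The class rates were 0.356% above and 0.444% below for sh3-1, and 0.437% and 0.349% for sh3-2, each under the background. A circle with reads in 1 library only cannot separate the groups. Such circles made up 74.6% of the class and 56.0% of exonic circles, so the rates are no result about the class. The RNF19A circle (chr8:101271335-101300495, hsa_circ_0135307), from a ubiquitin ligase gene, had 3, 2 and 4 reads in shCtr and 0 in all 6 hairpin libraries. The 2 sense overlapping circles of RNF19A together had 9, 3 and 0 reads in shCtr, sh3-1 and sh3-2. Its 2 exonic circles had 2, 5 and 4, without such a loss. The PKM circle (chr15:72499540-72501014), from the gene of a glycolytic pyruvate kinase, had 1, 2 and 2 reads in shCtr, 0, 1 and 0 in sh3-1 and 0 in sh3-2. Where a library had 0 reads, its true share could still reach 0.0513% to 0.0795%, depending on depth and by counting error alone.

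The authors' deposited table gives a fold of 2 or more with p under 0.05 for 2 sense overlapping circles that were higher and 3 that were lower with sh3-1, against 0.385% and 0.641% of all listed circles. With sh3-2 the authors' deposited table gives this for 2 that were higher and 1 that was lower, against 0.346% and 0.331%. LYPLAL1, a gene of the lysophospholipase-like family, passed with both hairpins: its circle chr1:219366424-219392054 had 0 reads in all 3 controls, 3, 2 and 3 in sh3-1 and 5, 0 and 1 in sh3-2. The 3 sense overlapping circles of LYPLAL1 together had 6 reads in shCtr, 10 in sh3-1 and 6 in sh3-2. ECT2, a guanine nucleotide exchange factor needed for cytokinesis, had 0 in controls, 0, 1 and 2 in sh3-1 and 2, 0 and 8 in sh3-2. SNRPN, an imprinted spliceosome gene, had 4 and 9 reads in sh3-1 A and B and 0 elsewhere. Lower with sh3-1 were RNF19A, RTN4 (a reticulon of the endoplasmic reticulum, with 3, 4 and 0 reads in controls and 0 in sh3-1) and SRSF1 (a splicing factor, with 0, 4 and 4 in controls and 0 in sh3-1), and lower with sh3-2 was KIAA1841 (7, 2 and 0 in controls, 0 in sh3-2). The authors' deposited table gives these an FDR of 0.512 with sh3-1 and 0.558 with sh3-2.

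As a class, sense overlapping circles took a smaller share of the junction reads with sh3-1. The share was 13.0%, 12.5% and 13.1% in shCtr A, B and C, 10.8%, 10.4% and 10.3% in sh3-1 and 14.4%, 12.5% and 12.1% in sh3-2. Every sh3-1 library lay below every control, by 2.35 percentage points on average, and sh3-2 overlapped the controls. The 95% Wilson intervals of single libraries reached from 9.52% to 11.7% with sh3-1 and from 11.7% to 14.0% in controls, which covers counting error only. Shares were not tested, since 3 against 3 libraries cannot give an exact permutation p below 0.1.

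Circles grouped by abundance did not all move the same way. The 20 most abundant held 1.27 ± 0.0587% in shCtr and 1.08 ± 0.0844% in sh3-1, with every sh3-1 library below all controls. Of the reads of circles of all classes with at least 5 reads, the class share differed by −0.273 percentage points and the groups overlapped. The 50 sense overlapping circles with at least 10 reads held 1.89% in each control, 2.07 ± 0.0551% with sh3-1 and 2.29 ± 0.334% with sh3-2, higher in every hairpin library than in every control. Of the reads of circles of all classes found in at least 2 libraries, the class held 6.48% to 8.83% in sh3-1 and 7.38% to 8.40% in shCtr. That difference was −0.124 points, with overlap. Of all junction reads, sense overlapping circles in at least 2 libraries held a mean of 5.54% in sh3-1 and 4.94% in shCtr, the opposite direction. There sh3-1 A and B, which share circles found nowhere else, held 5.49% and 6.996%, and sh3-1 C held 4.12%, below all controls (4.45% to 5.51%). Sense overlapping circles with reads in a single library held 7.92 ± 0.602% of the reads in shCtr, 5.34%, 3.44% and 6.16% in sh3-1 A, B and C, all below the controls, and 6.81 ± 2.07% in sh3-2. The circles counted by their reads were chosen on these same values, so this is a description. By catalogue, the 282 circles with a circBase identifier held 3.55 ± 0.292%, 3.23 ± 0.262% and 3.48 ± 0.367%. At one fixed depth of 3775 reads per library, 253.7 ± 14.1 sense overlapping circles would be found in shCtr, 198.2 ± 6.09 in sh3-1 and 223.7 ± 18.8 in sh3-2. There every sh3-1 and every sh3-2 library lay below every control, for sh3-2 narrowly (at most 235.0 against at least 237.4 in shCtr). For exonic circles the means were lower with both hairpins too (1339 ± 103, 1225 ± 100.3 and 1163 ± 94.4), though the groups overlapped. A lower mean at fixed depth was thus not particular to the class.

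By span, more of the lower share with sh3-1 lay in long circles. Sense overlapping circles over 20000 bp (598 circles) held 5.11%, 5.44% and 5.12% of the reads in shCtr A, B and C, 3.62%, 3.46% and 3.77% in sh3-1 and 5.30%, 5.62% and 5.06% in sh3-2. Every sh3-1 library lay below every control, while those up to 20000 bp (7.64 ± 0.473% in shCtr, 6.90 ± 0.357% in sh3-1) overlapped. Exonic circles over 20000 bp did not show this, with 19.6 ± 1.67% in shCtr and 20.4 ± 0.132% in sh3-1. This division by span was made after the values were seen, and the difference between the classes was not tested.

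**Figure D5:**
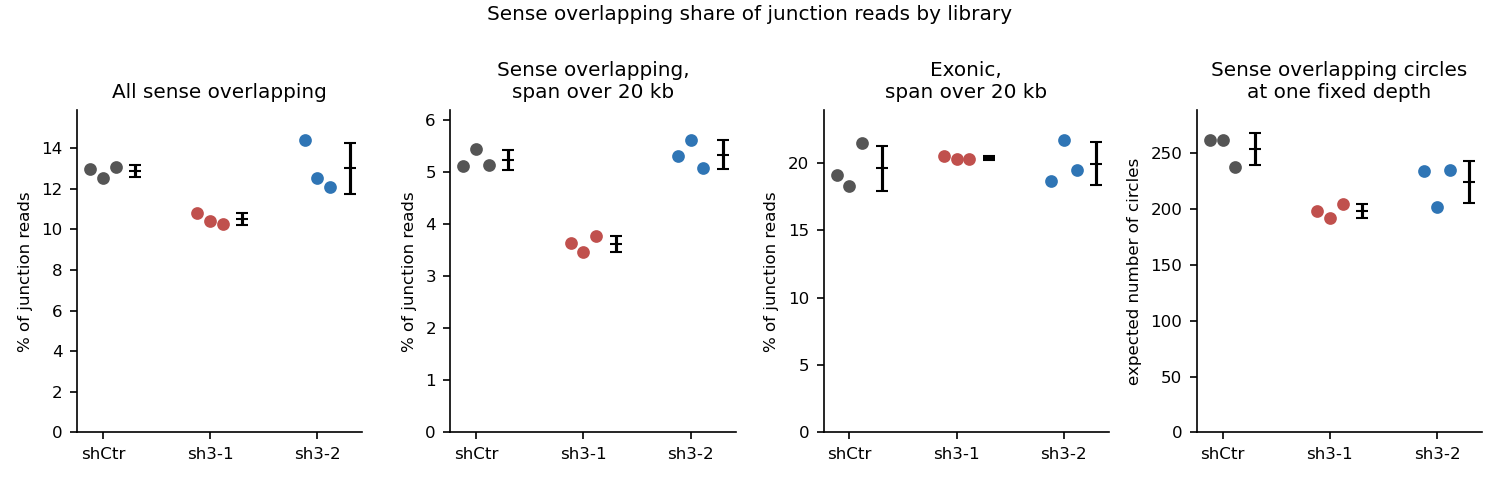
Points are libraries, with the group mean and SD (n = 3) to the right of them; the panels give, from the left, the sense overlapping share of junction reads in %, that of sense overlapping circles over 20 kb, that of exonic circles over 20 kb, and the number of sense overlapping circles expected at one fixed depth of 3775 reads. The sh3-1 libraries lie below all controls except for exonic circles, and sh3-2 lies below all controls only in the number of circles at fixed depth.

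Host gene lists were used to sort members by known function, with no test of enrichment. Chromatin regulators, 14 of 55 listed genes, hosted 22 circles with 139 reads, led by NIPBL, CHD9 and ASXL1, a Polycomb-linked regulator (12 reads). Ubiquitin ligases and deubiquitinases, 12 of 52 genes, hosted 22 circles with 90 reads, led by HERC4 (11), UBE3A (10) and RNF19A (9). RNA-binding and splicing genes, 13 of 53, hosted 22 circles with 71 reads, led by ADARB1 and SRSF1 (9 each), followed by HNRNPU (4). Exonic circles came from more genes of each of these lists, 44, 45 and 25 in the same order. None of these lists had a member that passed a test of the hairpins against shCtr, as only the NIPBL circle reached the lower filter.

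Genes often described as circRNA hosts, 10 of 40, had 18 circles with 108 reads, led by FIRRE, ASXL1 and FNDC3B (8 reads). They hosted 149 exonic circles at the same time. The m6A machinery, 4 of 22 genes, had 5 circles with 15 reads, from the demethylase FTO (4 reads on the leading circle), the reader YTHDC2 (4), the methyltransferase METTL3 (3) and IGF2BP3. Of those 15 reads, 4, 3 and 4 lay in shCtr A, B and C, 0, 2 and 2 in sh3-1 and 0 in all of sh3-2, the libraries with the fewest reads. Exonic circles of FTO, YTHDC2, METTL3 and IGF2BP3 had 2, 7, 8 and 6 reads in shCtr and 4, 4, 1 and 9 in sh3-2. Actomyosin and cytoskeletal genes, 10 of 50, had 12 circles with 34 reads (TPM4 with 6, RDX and SPTBN1 with 4). Of those 34 reads, 4, 3 and 1 lay in shCtr, 3, 2 and 3 in sh3-1 and 11, 4 and 3 in sh3-2. Differences between groups were not tested for any list. Matrix and adhesion genes had 3 circles (LAMB1, ITGB8 and SEMA3C, 3 to 5 reads), translation genes 3 (NCL, EIF4B and RPL4, 2 to 4 reads), squamous epithelial genes 2 (EVPL with 4 reads and EGFR with 2) and fibroblast and immune genes 0.

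Of the hosts named in the study's title, SMAD2, which carries TGF-beta signals to the nucleus, had 5 sense overlapping circles with 2 to 5 reads each, beside 4 exonic circles with 99 reads. Of the 5, 3 shared the upstream end chr18:45423180. Their reads were spread over shCtr (5), sh3-1 (6) and sh3-2 (4). The IGF2BP3 circle (chr7:23416342-23509835, 93494 bp) had 2 reads in shCtr A and 0 elsewhere. HECTD2 had 0 sense overlapping circles.

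The shortest and longest circles differed in annotation. Of 118 circles up to 500 bp, 8 (6.78%) had a circBase identifier and 2 had an exonic end, against 28 of 181 circles (15.5%) over 50000 bp with an identifier and 58 with an exonic end. An exonic end could score only in hosts with an exonic circle. Circles of such hosts had a median span of 19267 bp, against 8744 bp for the others, so the counts of exonic ends are not like for like. With at least 10 reads the shortest were those of MALAT1 (189 bp), ZNF587 (395 bp), PLEKHA2 (620 bp, 11 reads), FBXO22 (738 bp, 15 reads) and ZNF609 (874 bp). Among the longest were those of SMC6 (80449 bp), RRP7A (61088 bp) and SCAF8 (59421 bp, 10 reads).

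m6A was measured by the authors as sites on circles, compared between sh3-2 and shCtr. Of the 1505 sense overlapping circles, 892 (59.3%) had a listed site, 6.97 sites each on average, against 28.3% of exonic circles with 3.15. Since the span of a sense overlapping circle includes introns and other exons, sites were not divided by length. A site can thus be listed over more sequence in this class, and these counts do not compare how densely the classes carry m6A. In the authors' deposited table, of 6215 sites on these circles, 549 (8.83%) had an FDR under 0.05, 276 higher and 273 lower in sh3-2, against 9.002% of all 14885 sites. Among abundant circles, RRP7A had 40 sites (8 lower at that FDR), ELK4 12 (0 called), MPP6 10 (1 lower), ZNF609 6 (0 called), SMC6 4 (0 called) and NIPBL and CHD9 2 each (0 called), while the 3 ZNF124 circles among the 20 most abundant had 0. The IGF2BP3 circle had 23 sites, 3 lower and 1 higher.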

How the data were processed

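The submitters' processing notes name STAR 2.5.1b, cutadapt 1.9.3, build hg19 and edgeR 3.16.5, and no sources used here name the circRNA caller. Per the file headers, the deposited counts are unnormalized junction reads per circle and library. The authors also deposited a log2 fold change, p-value and FDR per circle, and a fold, p-value and FDR per m6A site. Another 24 columns of per-library log values were not used. Circles absent from a hairpin's sheets were given 0 reads there. Every circle had at least 2 reads in some library, and 24 sense overlapping junctions of the mitochondrial chromosome were left out. No genome of this build was used, so no junction sequences are shown.

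Counts were tested with edgeR 4.0.16 (quasi-likelihood, TMM, filterByExpr with a minimum count of 10, or 3 with a minimum total of 5; R 4.3.3), with DESeq2 1.42.0 as an alternative; the tests were checked on simulated data. SE is the log2 fold change divided by the root of the F statistic. Benjamini-Hochberg adjustment ran over all features tested. Expected circles at fixed depth are exact expectations of drawing 3775 reads without replacement; this was added after seeing the data. Replicate letters were not taken as pairs, since same-letter libraries did not deviate together. Whether libraries A, B and C came from separate cultures is not in the labels, so the p-values reflect a spread that may be technical. Other steps used scipy 1.17.1, pandas 2.3.3 and numpy 2.4.6 under Python 3.11.15.

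Named circles were those tested, the 20 with the highest mean share, those in all 9 libraries, those past the authors' p and fold, circles of the 8 hosts with most circles (ties by reads), of HECTD2, IGF2BP3 and SMAD2, up to 3 per gene list, and the 5 longest and 5 shortest with 10 reads; circles whose groups do not overlap were named after their values were seen. The circles and lists were chosen with earlier results of these data known. Results for some host genes are not reported here, though their circles stay in the counts and fits.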

Additional observations from a re-analysis of the deposited data

Results flagged for a closer look

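The hairpins differed in direction for sense overlapping circles that span over 20000 and up to 50000 bp. These held 3.45%, 3.37% and 3.18% of the junction reads in shCtr A, B and C, 2.27%, 2.51% and 2.69% in sh3-1 and 3.70%, 3.84% and 3.50% in sh3-2. The difference from the control mean was −0.843 percentage points with sh3-1 and 0.346 points with sh3-2, and every library of each hairpin lay on its own side of all controls. This span was flagged for that same pattern. For sense overlapping circles up to 20000 bp and over 50000 bp, sh3-2 overlapped the controls, with mean differences of 0.0393 and −0.244 points. The difference between the hairpins was not tested.

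The 20 most abundant sense overlapping circles together held 1.27 ± 0.0587% of the reads in shCtr, 1.08 ± 0.0844% in sh3-1 and 1.53 ± 0.141% in sh3-2, with a mean in sh3-1 minus sh3-2 of −0.453 points. Here too the libraries of the hairpins lay on opposite sides of all controls. The 20 were chosen by these same reads and flagged for that same pattern, and the difference was not tested.

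Sense overlapping junctions of the mitochondrial chromosome, left out above, had 3, 9 and 5 reads in shCtr, 18, 4 and 45 in sh3-1 and 12, 38 and 36 in sh3-2. Every sh3-2 library (mean 0.727% of junction reads) lay above every control, and sh3-1 overlapped them.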

How the results depend on the processing

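In the 86 fits, alternatives included, that tested any sense overlapping circle or host sum, 0 were called; the other fits tested none. Counts over all features moved as follows. For sh3-2 against shCtr the minimum count of 3 gave 1 call, with 0 without shCtr replicate C or sh3-2 replicate B (range 0 to 1). For sh3-2 against sh3-1 the replicate block gave 1 call (SPECC1), and leaving out 1 library gave 0 to 1 (1 without sh3-2 A). For both hairpins against shCtr the range was 0 to 1 (1 without sh3-1 B). For host sums it was 0 to 3 with sh3-1 (3 without sh3-1 C) and 0 to 2 with sh3-2 (2 without shCtr B, otherwise 0), where DESeq2 and no filter gave 0 against the 1 reported.

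With 1 library left out and a minimum count of 3, log2 fold changes with sh3-2 ran from −0.28 to 0.97 for FANCB, −0.75 to 0.36 for FIRRE, −0.69 to 0.95 for NFE2L2, −0.58 to 1.06 for NIPBL and −0.71 to 0.22 for ZNF609. With the replicate block NFE2L2 was at 0.0553. Same-letter libraries correlated at −0.144 to 0.196 over 65 circles, so the letters were not taken as pairs.

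The class share with sh3-1 minus shCtr was −0.124 points of the reads of circles in 2 or more libraries. It was −0.273 points of the reads of circles with at least 5 reads. With 1 library left out the share of all junction reads differed by −2.52 to −2.23 points. For sh3-2 it ran from −0.57 to 0.61. Keeping only circles listed for both comparisons gave −6.65 and −5.41 points, since that setting keeps every control circle and drops those found with a single hairpin and in no control. Without sh3-2 A, both other sh3-2 libraries lay below all controls. Reads per circle against intronic circles turned to 0.0464 among circles in 2 or more libraries (adjusted p = 0.542). Depth limits every value for a single circle.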
